A study of Homo sapiens with 39 samples.

Results

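The 41 homologous recombination repair (HRR) and Fanconi anemia genes described here were taken by symbol from a fixed list, and all 41 were found among the 63187 genes of the count table. RNA was sequenced from C4-2B cells, an established prostate cancer line that grows without androgens and derives from the androgen-sensitive line LNCaP, in 39 libraries forming 13 groups of 3 replicates. A panel of 21 libraries covered 5 days of treatment: the solvent DMSO as control, 4 single drugs (olaparib at 1 µM, talazoparib at 10 nM, abiraterone at 5 µM and enzalutamide at 20 µM) and 2 pairs at the same doses, olaparib with abiraterone and talazoparib with enzalutamide. A time course of 18 libraries held cells treated with DMSO or with olaparib at 1 or 5 µM for 1 or 5 days. Abiraterone, an inhibitor of androgen synthesis, and enzalutamide, a blocker of androgen signaling, are the androgen pathway inhibitors (ARPi), and olaparib and talazoparib are inhibitors of poly(ADP-ribose) polymerase (PARPi). The paper describes LNCaP as sensitive to PARPi, likely through mutations in HRR genes, BRCA2 among them. The groups share 1 cell line, so the results describe that line. The labels do not say that replicates were separate cultures, so p-values measure the spread between these samples, which may be technical.

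Homologous recombination repairs a DNA double-strand break by copying the intact sister chromatid, and is therefore used in S and G2 phase. The break is resected by the MRN complex, the single strand is coated by RPA, BRCA proteins and mediators load the recombinase, and helicases and nucleases resolve the joined molecules. The Fanconi anemia pathway repairs DNA crosslinks: a core complex with the ubiquitin ligase FANCL and the conjugating enzyme UBE2T modifies the FANCD2-FANCI pair. Tumor cells that lack these functions are sensitive to PARPi, and many of the genes are transcribed more in dividing cells.

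Totals per library ran from 26932205 to 49833473 estimated counts, and the 41 genes together took between 0.0928% and 0.239% of a library. All 41 passed the filter on low counts in both experiments. The lowest group mean of any of them was 2.93 CPM (counts scaled to a common library size with TMM factors), for BLM at day 5 of 5 µM olaparib, where the libraries held 94 to 120 counts. Levels below are CPM with SD over 3 libraries, and differences are log2 fold changes with their standard error (SE) from edgeR's quasi-likelihood test. A gene was called lower or higher at an adjusted p under 0.05 over all genes tested. Per kb of transcript, the level in DMSO at day 5 of the time course ran from 2.36 CPM for RAD51D to 80.9 CPM for UBE2T. The luminal markers KLK3 and HOXB13 were present in every library, at 156 CPM or more, and the basal markers KRT5 and TP63 at no more than 2 counts. The basal marker KRT14 reached 68 counts (1.91 CPM) and the leukocyte marker PTPRC 47 (1.17 CPM). COL1A1 and VWF, markers of stromal and endothelial cells, were at 7.48 to 22.5 CPM, and CD3E, DCN and PECAM1 were at no more than 4 counts. Of these 10 markers of other cell types 4 could be tested in the time course and 5 in the panel. At day 5 of 5 µM olaparib CD68 and KRT14 were higher and VWF lower (log2 fold changes 2.26, 2.08 and -0.38), and at day 5 of 1 µM 3 of the 4 were higher. On day 1 of the time course 2 of the 4 were higher at 1 µM and 2 at 5 µM. In the panel 3 of the 5 were higher with olaparib, with talazoparib (1 lower) and with abiraterone (2 lower), and 2 were higher and 3 lower with enzalutamide. With abiraterone plus olaparib 3 were higher, and with enzalutamide plus talazoparib 2 were higher and 1 lower. The part of these markers in the results was not tested. The androgen target TMPRSS2 and the p53 target CDKN1A were at 35.0 to 458 CPM and 46.8 to 355 CPM in the panel.

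The clearest change was at day 5 of 5 µM olaparib. There 38 of the 41 genes were lower than in DMSO of the same day and 1, SLX4, was higher, with a median log2 fold change of -1.36. Without replicate 2 of DMSO or replicate 3 of 5 µM, 2 were higher. Over all 18502 genes tested 33.9% were lower and 34.4% higher, with a median of -0.01. Of the 38, 12 fell more than 4-fold, 15 fell 2-fold to 4-fold and 11 by less. For 34 of the 41 this group had the lowest mean of all 13 groups, although panel and time course were scaled separately.

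**Figure D1:**
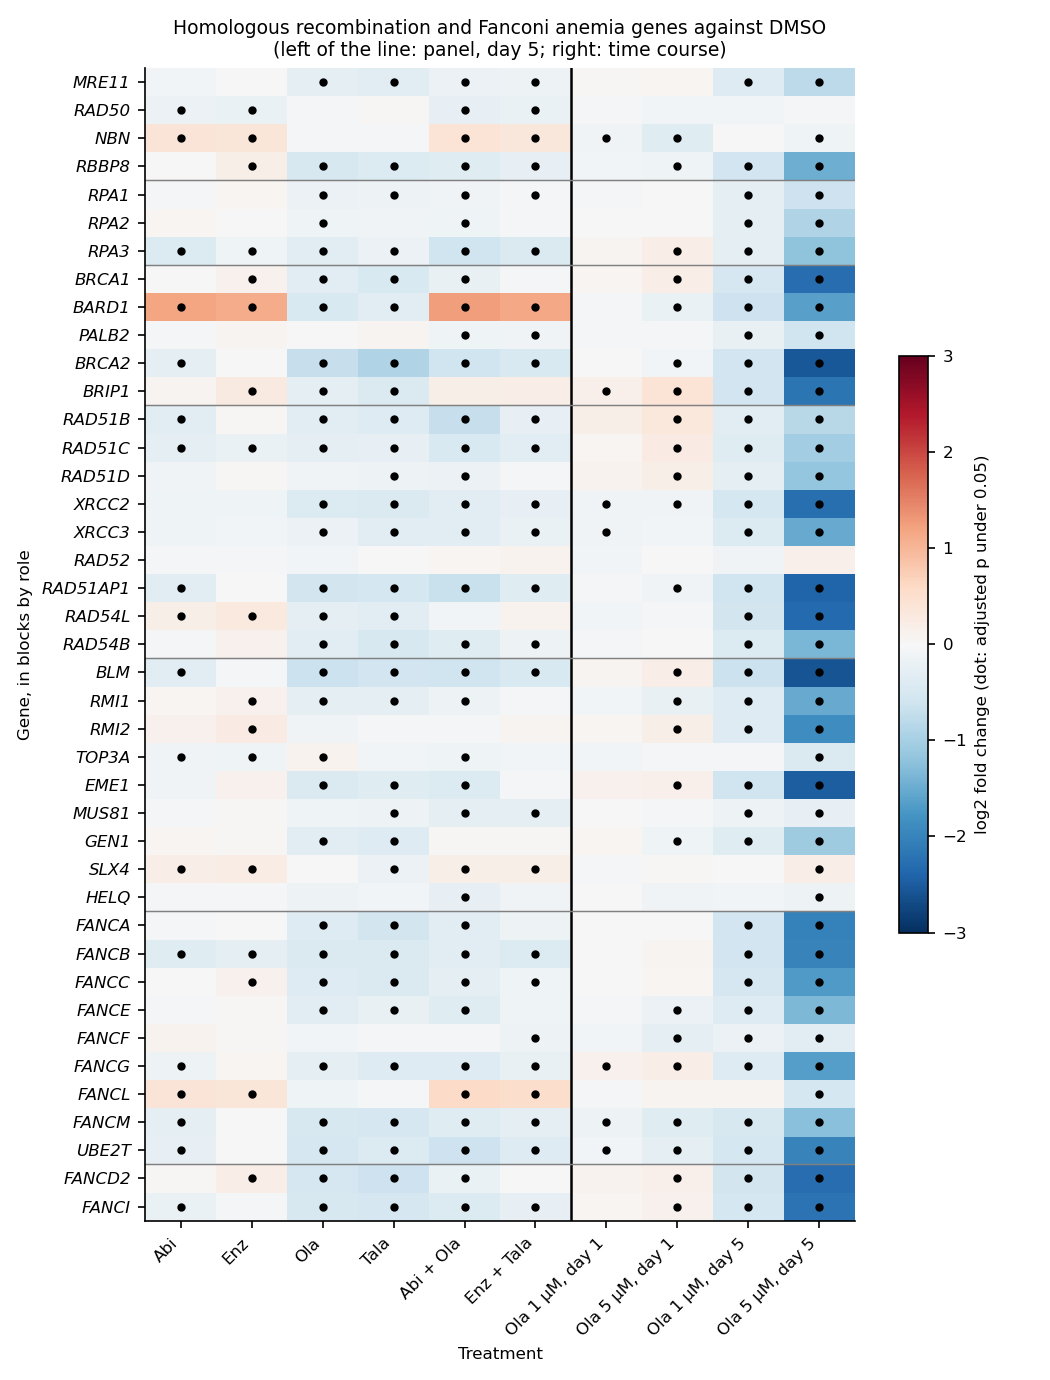
Log2 fold change of each of the 41 genes (rows, in blocks by role) against DMSO in 10 treatments (columns), blue for lower and red for higher, with a dot where the adjusted p was under 0.05. The column for 5 µM olaparib at day 5 is the darkest blue, with 38 genes lower, and BARD1 stands out in red in the 4 columns with an ARPi.

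The BRCA genes and their partners moved together at this dose and day. BRCA1, which promotes resection and loads the recombinase with its partners, was at 88.5, 86.6 and 88.6 CPM in DMSO and at 18.4, 18.4 and 17.8 CPM at 5 µM, so that the treated libraries lay far below the controls (log2 fold change -2.27, SE 0.04, adjusted p = 3.78e-35). BRCA2, which carries the recombinase to the single strand, was at 94.1, 96.1 and 90.1 CPM in DMSO and 16.2, 16.2 and 15.9 CPM at 5 µM (-2.54, SE 0.04). PALB2, the bridge between BRCA1 and BRCA2, fell less, from 24.7, 24.3 and 23.8 CPM to 15.3, 17.6 and 14.9 CPM (-0.61, SE 0.05). BRIP1, a helicase bound by BRCA1, was at 31.4, 31.7 and 29.3 CPM in DMSO and 6.27, 6.62 and 7.31 CPM at 5 µM. The log2 fold change of BRIP1 was -2.19, and that of BARD1, the partner of BRCA1 in its ubiquitin ligase, was -1.64. All 5 genes of this group were lower in both doses at day 5.

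Among the genes for strand exchange, 8 of 9 fell. RAD51AP1, a stimulator of strand invasion, fell from 37.8 ± 0.27 to 7.19 ± 0.59 CPM (SD, n = 3; log2 fold change -2.39), and the motor protein gene RAD54L from 39.2 ± 1.7 to 7.79 ± 0.45 CPM (-2.33). XRCC2, a paralog of the recombinase, fell from 107 ± 3.5 to 22.2 ± 0.64 CPM (-2.27). The paralogs differed in size: the log2 fold changes were -1.51 for XRCC3, -1.17 for RAD51D, -1.04 for RAD51C and -0.84 for RAD51B. RAD54B, a relative of RAD54L, had a log2 fold change of -1.36. RAD52, which anneals single strands, was the exception, at 10.2, 11.2 and 9.98 CPM in DMSO and 11.8, 11.6 and 11.2 CPM at 5 µM, just above the controls (0.14, SE 0.07, adjusted p = 0.0551).

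The helicases and nucleases held both the largest fall and the single rise. BLM, the helicase of Bloom syndrome, was at 19.0, 16.4 and 17.7 CPM in DMSO and at 3.36, 2.64 and 2.78 CPM at 5 µM (-2.60, SE 0.08). Its partners RMI1 and RMI2 fell too (log2 fold changes -1.51 and -1.86), and TOP3A, the topoisomerase of the same complex, fell less (-0.43). GEN1, which cuts Holliday junctions, had a log2 fold change of -1.07. EME1, a nuclease subunit, was at 24.7, 25.1 and 23.0 CPM in DMSO and 3.95, 4.32 and 4.87 CPM at 5 µM (-2.47, SE 0.07), whereas MUS81, the catalytic subunit it binds, fell by less (-0.24). SLX4, the scaffold of several nucleases, was at 20.4, 20.5 and 20.5 CPM in DMSO and 22.6, 24.2 and 23.9 CPM at 5 µM (0.20, SE 0.05, adjusted p = 0.000305).

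Sequence upstream of the genes is shown for the gene with the largest fall (BLM), for BRCA1 and BRCA2, and for the gene that rose (SLX4). Of the 41 genes, 35 matched a RefSeq promoter (GRCh38.p14), and the 250 bases before the RefSeq start were searched on both strands for CCAAT, the NF-Y box, for TTTNNCGC, an E2F-like motif, and for TTTGAA or TTCGAA, which resemble the CHR element of cell cycle genes. Capitals mark a match, on either strand. The RefSeq start of RAD51B lay 3762 bases downstream of the start of its annotated transcript, and its window held none of the motifs.
BLM (chr15:90717096-90717345, strand +): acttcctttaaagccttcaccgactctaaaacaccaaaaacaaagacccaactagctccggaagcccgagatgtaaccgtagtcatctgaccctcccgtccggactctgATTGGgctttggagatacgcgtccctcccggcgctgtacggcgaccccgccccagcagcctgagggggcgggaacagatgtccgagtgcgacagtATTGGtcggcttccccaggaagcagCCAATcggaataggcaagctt
BRCA1 (chr17:43125365-43125614, strand -): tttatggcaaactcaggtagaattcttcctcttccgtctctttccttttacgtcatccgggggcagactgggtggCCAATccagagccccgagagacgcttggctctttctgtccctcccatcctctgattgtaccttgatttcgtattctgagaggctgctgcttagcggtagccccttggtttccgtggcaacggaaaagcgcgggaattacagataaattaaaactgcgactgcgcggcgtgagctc
BRCA2 (chr13:32315258-32315507, strand +): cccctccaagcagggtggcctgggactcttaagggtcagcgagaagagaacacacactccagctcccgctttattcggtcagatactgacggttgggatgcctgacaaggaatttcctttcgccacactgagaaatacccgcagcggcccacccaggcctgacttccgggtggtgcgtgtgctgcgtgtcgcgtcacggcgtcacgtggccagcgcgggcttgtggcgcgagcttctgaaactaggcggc
SLX4 (chr16:3611607-3611856, strand -): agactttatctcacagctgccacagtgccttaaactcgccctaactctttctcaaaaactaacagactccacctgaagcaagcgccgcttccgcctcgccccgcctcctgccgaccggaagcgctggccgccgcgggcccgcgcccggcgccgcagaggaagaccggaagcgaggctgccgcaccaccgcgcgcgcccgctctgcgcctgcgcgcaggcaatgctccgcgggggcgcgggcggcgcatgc
BLM has 3 NF-Y boxes, BRCA1 has 1, and none of the 3 motifs was found in BRCA2 or SLX4. The NF-Y box was in 16 of the 35 upstream sequences (45.7%) and in 32.0% of 35116 promoters, the E2F-like motif in 8.57% and 5.92%, and the CHR-like motifs in 11.4% and 14.3%. The 35 hold 1 start per gene and the 35116 every listed start of each gene, so the shares are not counted alike. Among the genes that fell more than 4-fold, 7 of 11 with a sequence held an NF-Y box, and among those that changed less than 2-fold or rose, 6 of 12.

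All 9 genes of the Fanconi core complex and its conjugating enzyme fell, with a median log2 fold change of -1.65. FANCA (-2.03), UBE2T (-2.01) and FANCB (-2.0) fell most, with FANCB just short of a 4-fold fall. FANCC (-1.70), FANCG (-1.65), FANCE (-1.35) and FANCM (-1.25), the last a DNA translocase, lay between, and FANCL (-0.53) and FANCF (-0.31) fell least. The substrates FANCD2 and FANCI fell alike (-2.29 and -2.21). FANCD2 was at 66.5, 66.0 and 63.3 CPM in DMSO and 13, 12.5 and 14.5 CPM at 5 µM. The resection genes had the smallest median log2 fold change of the groups by role, -0.46. It was -1.46 for RBBP8, which encodes the resection factor CtIP, -0.79 for MRE11, the nuclease of the MRN complex, and -0.13 for NBN. RAD50, the remaining MRN subunit, was at 107, 108 and 104 CPM in DMSO and 93.5, 108 and 111 CPM at 5 µM (-0.03, SE 0.05, adjusted p = 0.591). All 3 RPA genes fell, with log2 fold changes of -0.62 for RPA1, -0.91 for RPA2 and -1.22 for RPA3.

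**Figure D2:**
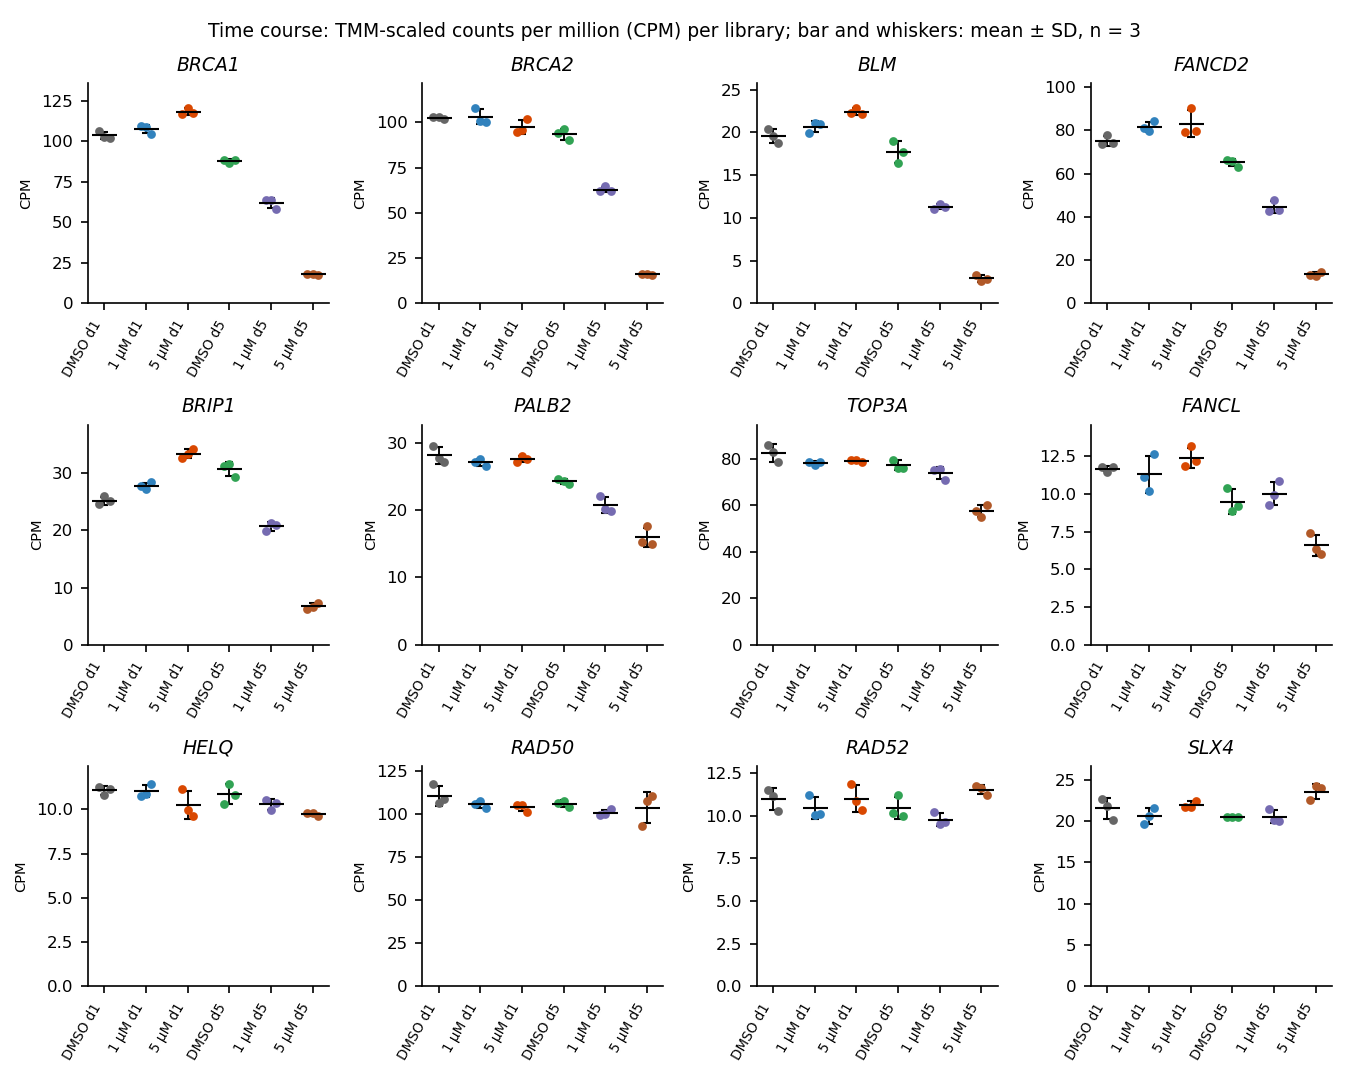
CPM per library (points) for 12 genes in the 6 groups of the time course, with the mean as a bar and the SD as whiskers (n = 3). BRCA1, BRCA2, BLM, FANCD2 and BRIP1 step down at day 5 from DMSO to 1 µM to 5 µM, TOP3A and FANCL are lower at 5 µM, and RAD50, RAD52, HELQ and SLX4 stay near their DMSO levels.

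To see whether the fall was particular to the higher dose and later day, the 4 comparisons of the time course were set side by side. At day 5 of 1 µM olaparib 34 of the 41 genes were already lower and none higher (22.9% and 23.4% of all genes), with a median of -0.39. BRCA1 was at 63.6, 64.0 and 58.1 CPM (-0.50) and PALB2 at 22.1, 20.2 and 19.9 CPM (-0.23), below the controls. The comparisons of a day share their DMSO libraries. The dose step itself was tested: 36 genes were lower at 5 than at 1 µM and 2, RAD52 and SLX4, higher (27.0% and 26.6% of all genes). BRCA2, for example, was at 62.2, 64.6 and 61.9 CPM at 1 µM, between DMSO and 5 µM with no overlap. The largest falls at 1 µM were in BLM, BARD1 and RAD51AP1. BLM was at 11, 11.7 and 11.3 CPM (-0.65, SE 0.06), BARD1 at 62.6, 63.3 and 63.6 CPM against 97.4, 98.5 and 96.4 CPM in DMSO (-0.63, SE 0.03), and RAD51AP1 at 25.8, 22.7 and 26.2 CPM against 37.6, 37.8 and 38.1 CPM (-0.61, SE 0.05). No treated library of these genes reached a control. At an unadjusted p under 0.05 and by DESeq2, too, 0 genes were higher.

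Only 3 genes were called lower at day 5 of 5 µM and in none of the other 3 comparisons: FANCL, TOP3A and HELQ. Over all genes tested 8.77% had this pattern, so that 3 of 41 is near the background. A call in 1 comparison and not in another is no test of their difference, so the dose step and the difference between days were required as well, and FANCL and TOP3A passed both, as did 4.55% of all genes. FANCL, the ubiquitin ligase of the core complex (chr2:58159243-58241410, minus strand, GRCh38), was at 10.4, 8.86 and 9.19 CPM in DMSO, 9.28, 9.95 and 10.8 CPM at 1 µM and 7.39, 6.34 and 6.02 CPM at 5 µM on day 5. The 5 µM libraries lay below all the others (log2 fold change -0.53, SE 0.09, adjusted p = 1.46e-06), and on day 1 FANCL was at 11.8, 11.5 and 11.8 CPM in DMSO and 11.8, 13.2 and 12.2 CPM at 5 µM (0.08, SE 0.08). At 1 µM on day 1 it was at 11.1, 10.2 and 12.6 CPM (-0.04). The dose step was -0.60 and the difference between days -0.62 on the log2 scale. FANCL was on the list under every setting run and without each library in turn.

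TOP3A (chr17:18271428-18315007, minus strand) was at 79.5, 76.1 and 75.9 CPM in DMSO, 75.2, 75.5 and 70.8 CPM at 1 µM and 57.3, 54.9 and 60.2 CPM at 5 µM on day 5 (-0.43, SE 0.03, adjusted p = 7.96e-14). On day 1 it was at 85.8, 82.9 and 78.6 CPM in DMSO, 78.6, 77.4 and 78.6 CPM at 1 µM and 79.4, 79.5 and 78.6 CPM at 5 µM, at the lower edge of the controls. Its place among the 3 rested on small differences elsewhere. With scaling by total counts it was also lower at 1 µM on day 5 (-0.09, adjusted p = 0.0278 by edgeR), and without replicate 3 of DMSO on day 1 it was lower on day 1 at both doses (-0.11 and -0.09). HELQ, a helicase, was at 10.3, 11.4 and 10.8 CPM in DMSO and 9.8, 9.77 and 9.62 CPM at 5 µM (-0.15, SE 0.06, adjusted p = 0.0327), and passed neither the dose step (adjusted p = 0.32) nor the difference between days (adjusted p = 0.697). Its call was lost with DESeq2 (adjusted p = 0.154), without the filter on low counts (adjusted p = 0.0777) and, by edgeR, without any 1 of the 3 libraries of 5 µM on day 5 or replicate 2 or 3 of DMSO on day 5 (adjusted p from 0.0592 to 0.151). Without replicate 3 of DMSO on day 5, RAD51B joined the list, since its call at 1 µM was lost (adjusted p = 0.0611 by edgeR). HELQ also left the list without replicate 1 of 5 µM on day 1, and total-count scaling added RAD50. FANCL, TOP3A and HELQ were not called lower with either PARPi of the panel. There FANCL was at 8.79, 8.64 and 8.31 CPM with olaparib and 9.22, 9.78 and 8.54 CPM with talazoparib, within the DMSO range of 8.01 to 10.4 CPM. TOP3A was called lower with both ARPi of the panel. Over all groups of both experiments, which were scaled separately, TOP3A and HELQ had their lowest means with abiraterone plus olaparib (51.3 and 9.64 CPM).

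**Figure D3:**
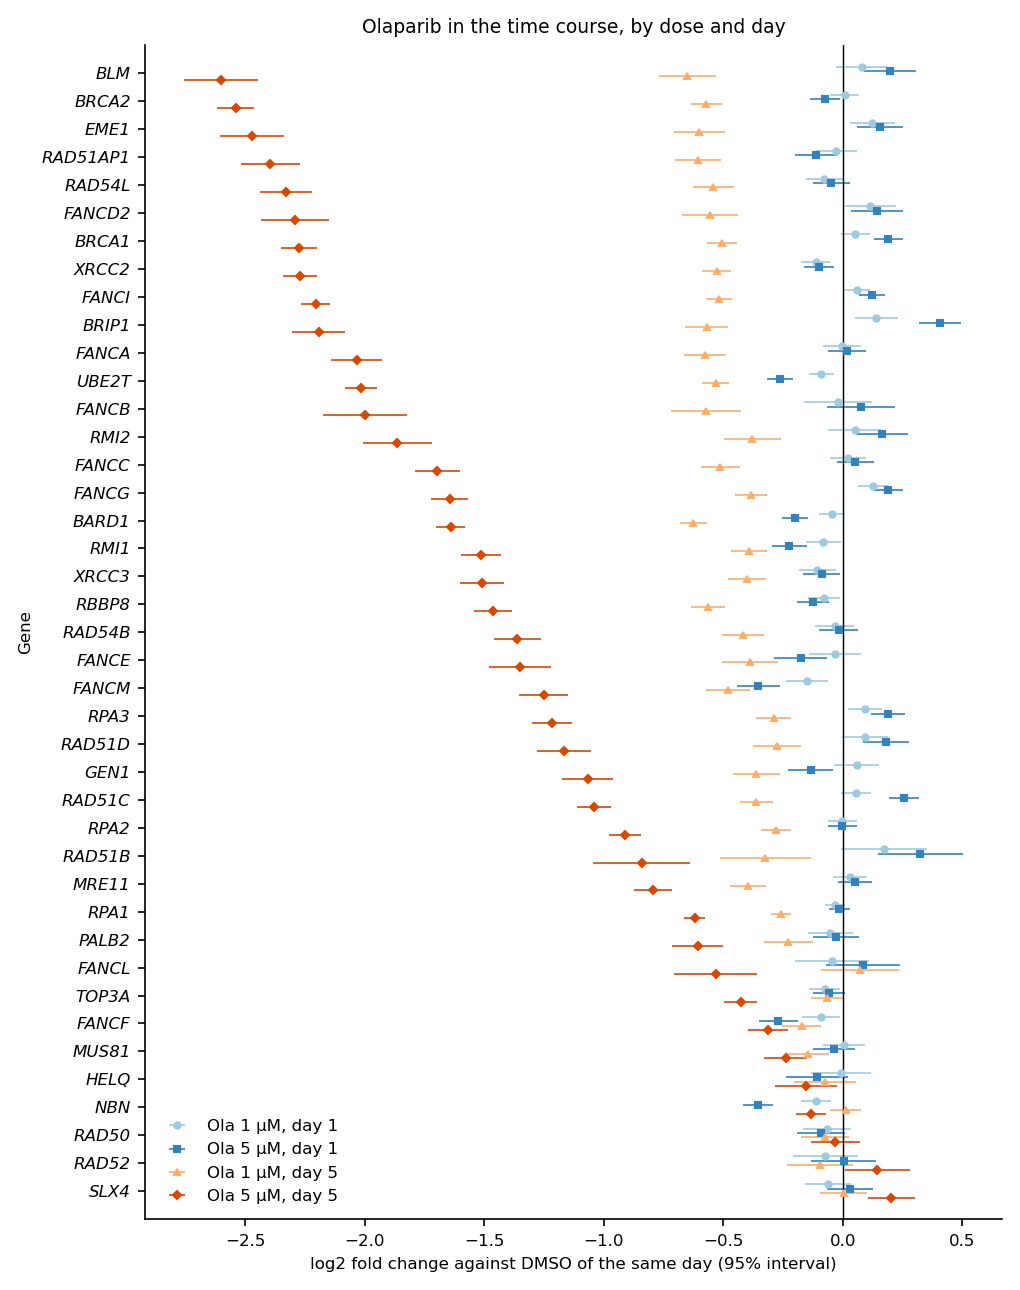
Log2 fold change against DMSO of the same day with its 95% interval for each gene, in 4 colours and symbols for 1 and 5 µM olaparib on days 1 and 5. The day 1 points lie around 0, the 1 µM points of day 5 mostly to the left of them, and the 5 µM points of day 5 reach -2.60 for BLM, while the other points of FANCL and TOP3A lie near 0.

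Day 1 looked different. At 5 µM 12 of the 41 genes were lower and 12 higher (23.4% and 21.6% of all genes), and at 1 µM 5 were lower and 2 higher (9.52% and 6.30%). The 12 that were higher were RPA3, BRCA1, BRIP1, RAD51B, RAD51C, RAD51D, BLM, RMI2, EME1, FANCG, FANCD2 and FANCI, and all of them were lower at day 5. Higher on day 1 and lower on day 5 of 5 µM were 3.41% of all genes. Choosing genes by opposite calls fixes the sign of the difference between days, so that difference is no further test of them. BRIP1 was at 24.6, 25.9 and 25.2 CPM in DMSO and 32.6, 33.5 and 34.3 CPM at 5 µM on day 1, above every control (0.41, SE 0.04). BRCA1 was at 106, 103 and 102 CPM in DMSO and 117, 121 and 117 CPM at 5 µM (0.19, SE 0.03), and RAD51B and RAD51C were higher as well. RAD51B was at 6.91, 6.7 and 6.06 CPM in DMSO and 7.94, 8.66 and 8.04 CPM at 5 µM (0.33 on the log2 scale, SE 0.09), and RAD51C was at 63.3, 59.6 and 60.4 CPM in DMSO and 72.8, 70.7 and 75.3 CPM at 5 µM (0.26). The libraries of these 4 genes did not overlap. NBN, a sensor of breaks, was lowest here, at 79.9, 75.2 and 81.4 CPM against 106, 96.5 and 101 CPM in DMSO (-0.36, SE 0.03). FANCM was at 30.5, 28.4 and 28.6 CPM in DMSO, 26.7, 25 and 27.1 CPM at 1 µM and 22.2, 23 and 23.2 CPM at 5 µM (-0.15 and -0.35). FANCF was at 38.8, 35.9 and 38.3 CPM in DMSO and 30.7, 32.1 and 30.9 CPM at 5 µM (-0.27). The treated libraries of both lay below the controls. At 1 µM NBN was at 91.1, 94.8 and 94.1 CPM (-0.11), a call lost without replicate 1 of DMSO (adjusted p = 0.129 by edgeR) or of 1 µM, and BRIP1 was higher, at 27.8, 27.3 and 28.4 CPM (0.14), a call lost with DESeq2 (adjusted p = 0.0859) and without replicate 1 or 3 of DMSO or of 1 µM. XRCC2 at 1 µM was at 97.2, 99.8 and 93.8 CPM against 104, 104 and 107 CPM in DMSO (-0.11, a call lost without replicate 3 of either group), and FANCG was higher, at 51.3, 52.5 and 52.8 CPM against 46.9, 48.6 and 47.7 CPM (0.13). BRCA2 was at 103, 103 and 102 CPM in DMSO and 95, 95.7 and 102 CPM at 5 µM (-0.08, adjusted p = 0.0451 by edgeR), and PALB2 at 29.6, 27.7 and 27.2 CPM and 27.1, 28.1 and 27.6 CPM. At 1 µM none of the 3 genes the study asks about was called: BRCA1 was at 109, 109 and 105 CPM (0.05), BRCA2 at 108, 101 and 100 CPM (0.01) and PALB2 at 27.1, 27.7 and 26.6 CPM (-0.05). With total-count scaling 6 of the 41 genes were lower at 5 µM on day 1, in place of 12. At 1 µM the 5 lower calls became 1 without replicate 1 of DMSO and 2 to 3 without any 1 of the treated libraries, and the 2 higher became 1 without replicate 3 of DMSO or replicate 1 or 3 of the treated. The BRCA2 call was lost under total-count scaling (adjusted p = 0.509 by edgeR), DESeq2 (adjusted p = 0.0682), the replicate block (adjusted p = 0.0531 by edgeR) and 3 other settings, and without any 1 library of DMSO or replicate 1 or 2 of 5 µM (adjusted p = 0.0685 to 0.203 by edgeR).

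The effect of 5 µM differed between days in that 35 genes were lower and 2 higher at day 5 (27.7% and 27.2% of all genes), and that of 1 µM in that 31 were lower and 1 higher (14.2% and 15.6%). NBN was higher in both, and SLX4 at 5 µM. The NBN call at 1 µM was lost without any 1 of 7 libraries, namely replicates 1 and 3 of DMSO and 1 of 1 µM on day 1 and replicates 1 and 2 of DMSO and of 1 µM on day 5, and the 2 at 5 µM became 1 without replicate 1 or 2 of DMSO or of 5 µM on day 1 or replicate 2 of 5 µM on day 5. The higher difference of NBN was a smaller fall at day 5. Against DMSO it was called lower at 5 µM on both days, and at 1 µM on day 1 only. Without treatment 18 genes were lower and 1, BRIP1, higher in DMSO at day 5 than at day 1 (13.4% and 11.1% of all genes), with the largest fall in FANCL (log2 fold change -0.30).

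Most genes of S phase and G2/M were lower too at day 5 of both doses. At day 5 of 5 µM all 38 S phase genes and all 54 G2/M genes of fixed lists, which leave out the 41, were lower, with medians of -1.92 and -2.68. The largest falls were in CDC45 (-2.88) and PRIM1 (-2.73), which act at the replication fork, and in the mitotic genes CENPA (-3.34) and CDC20 (-3.31). At day 5 of 1 µM 36 and 52 were lower, with medians of -0.46 and -0.56, with none and 1 higher. On day 1 of 5 µM 17 S phase genes were lower and 10 higher (median -0.07), and 53 G2/M genes were lower and 1 higher (median -0.66), beside 12 lower and 12 higher of the 41. On day 1 of 1 µM 19 S phase and 21 G2/M genes were lower and 1 and 3 higher, beside 5 lower and 2 higher of the 41. The p53 target CDKN1A, an inhibitor of the cell cycle, was higher by 4.15 on the log2 scale at day 5 of 5 µM. In bulk samples fewer cycling cells and less RNA per cell cannot be told apart, and the part of the cell cycle in the fall of the 41 genes was not tested.

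A further 45 genes of the pathway outside the 41 were measured. At day 5 of 5 µM 25 were lower and 11 higher, with a median of -0.42, where 33.9% of all genes were lower and 34.4% higher. The largest falls were in EXO1, the resection nuclease (-2.66), MND1 (-2.56) and MMS22L, a replication fork factor (-2.30).

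**Figure D4:**
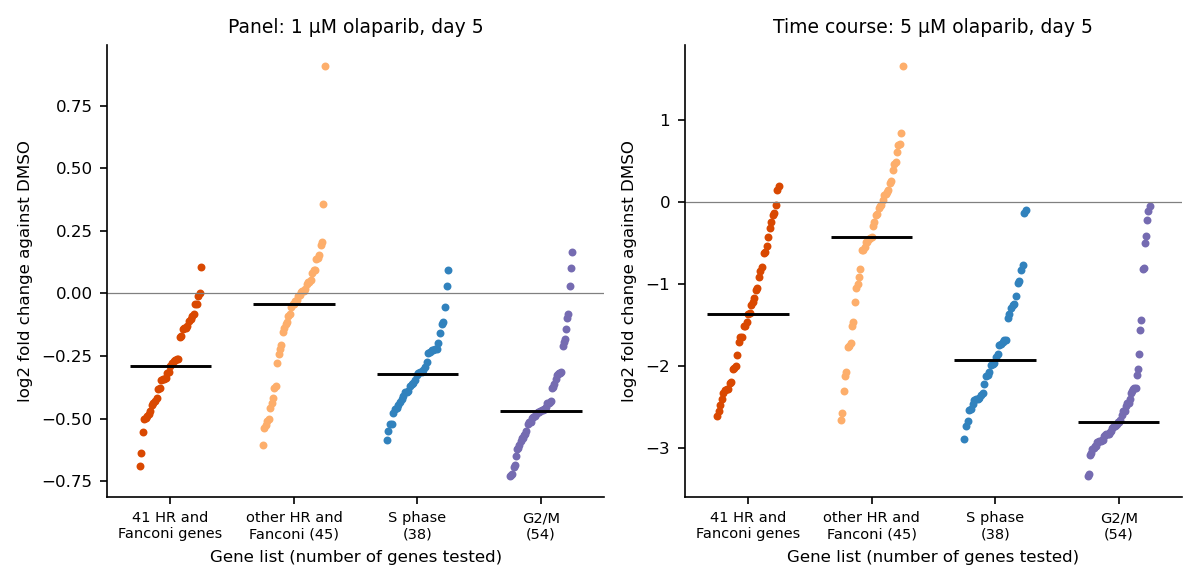
Log2 fold change against DMSO of each gene (points) in 4 lists, with the median as a bar, for 1 µM olaparib in the panel (left) and 5 µM at day 5 of the time course (right); the vertical scales differ. At 5 µM the medians are -1.36 for the 41 genes, -0.42 for the other pathway genes, -1.92 for S phase and -2.68 for G2/M.

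The panel repeated 1 µM olaparib for 5 days in another experiment. There 29 of the 41 genes were lower and 1, TOP3A, higher (16.0% and 19.6% of all genes), with a median of -0.29. All 29 were also lower at day 5 of 1 µM in the time course, where PALB2, RAD51D, RMI2, MUS81 and FANCF were lower as well. TOP3A was at 52.8, 57.1 and 58.6 CPM in DMSO and 59.7, 60.7 and 61.2 CPM with olaparib (0.11), a call that was lost in 5 of the alternative settings and without replicate A or B of DMSO or any 1 of the olaparib libraries (0.06 without DMSO A, adjusted p = 0.253 by edgeR). With talazoparib 31 were lower and none higher (15.4% and 18.4% of all genes; 0 higher at an unadjusted p under 0.05 or by DESeq2), with a median of -0.33. Both PARPi were set against the same DMSO libraries. TOP3A was at 54.7, 52.0 and 52.5 CPM with talazoparib (-0.09, adjusted p = 0.102 by edgeR). BRCA2 was at 76.3, 91.4 and 102 CPM in DMSO, 55.6, 57.5 and 54.9 CPM with olaparib and 54.6, 41.3 and 48.6 CPM with talazoparib (-0.69 and -0.91, SE 0.11 each). The DMSO libraries spread widely for this gene, but no treated library reached them. BRCA1 was at 71.8, 80.3 and 82.8 CPM in DMSO, 58.9, 64.9 and 62.5 CPM with olaparib and 60.5, 53.2 and 56.9 CPM with talazoparib (-0.34 and -0.47). BLM was at 18, 18.4 and 19.7 CPM in DMSO, 12.1, 12 and 12.1 CPM with olaparib and 13.4, 10.9 and 13.7 CPM with talazoparib (-0.64 and -0.57). RAD51AP1 was at 34.3, 34.2 and 35 CPM in DMSO and 23, 23.8 and 23.9 CPM with olaparib (-0.55), and FANCD2 at 53.2, 54.9 and 59.8 CPM in DMSO and 38.1, 35.0 and 36.3 CPM with talazoparib (-0.62). None of these treated libraries overlapped DMSO. PALB2 was at 22.9, 22.8 and 22.6 CPM in DMSO and 22.8, 22.6 and 22.4 CPM with olaparib (-0.01, 95% interval -0.11 to 0.09), and at 24.7, 23.5 and 23.7 CPM with talazoparib (0.07, 95% interval -0.02 to 0.17). As the doses differ, the PARPi were not tested against each other. S phase genes were lower in 33 of 38 with either drug.

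**Figure D5:**
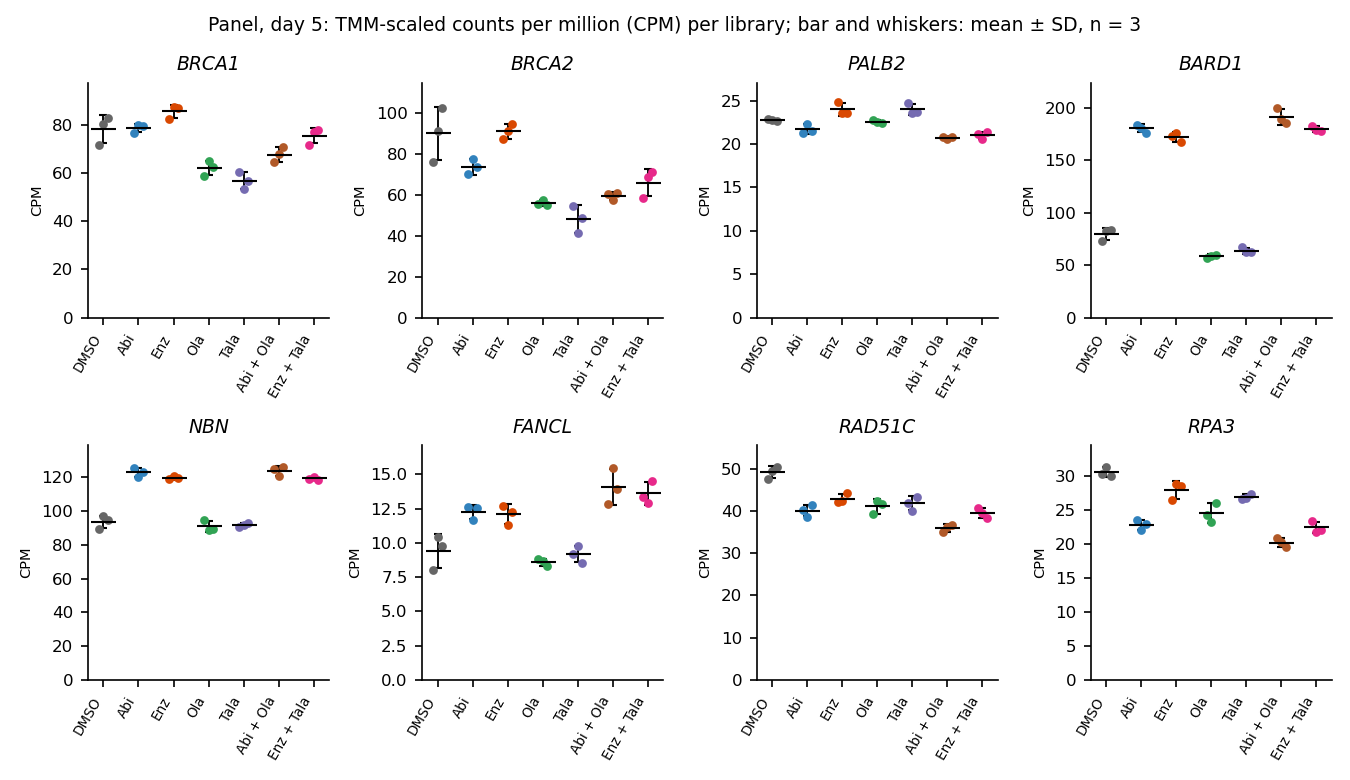
CPM per library (points) for 8 genes in the 7 groups of the panel, with the mean as a bar and the SD as whiskers (n = 3). BARD1, NBN and FANCL are higher in the 4 groups with an ARPi, BRCA1 and BRCA2 are lowest with a PARPi alone, and PALB2 stays between 20.5 and 24.8 CPM.

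Whether ARPi lower HRR genes is a question of the study, which also examined repair gene sets and BRCA1 and BRCA2 protein. The paper reports no significant fall of either with these drugs. The values here are RNA levels, gene by gene. With abiraterone 13 of the 41 genes were lower and 5 higher (27.1% and 25.8% of all genes), and with enzalutamide 5 were lower and 12 higher (26.3% and 27.0%). The medians were -0.06 and 0.04. The 5 genes higher with abiraterone were NBN, BARD1, RAD54L, SLX4 and FANCL, and the 5 lower with enzalutamide were RAD50, RPA3, RAD51C, TOP3A and FANCB. Both drugs share the same DMSO libraries. TOP3A was at 53.7, 50.2 and 52.9 CPM with abiraterone and 51.7, 52.8 and 50.8 CPM with enzalutamide, reaching the lowest DMSO library (-0.11 and -0.12). Its call was lost without replicate C of DMSO or of either drug, and with abiraterone also without replicate B of DMSO or of abiraterone, and with total-count scaling it was lost for both drugs (adjusted p = 0.476 and 0.172 by edgeR). Of the 38 S phase genes 16 were lower and 5 higher with abiraterone, and 13 lower and 7 higher with enzalutamide. Of the 54 G2/M genes 28 were lower and 6 higher with abiraterone, and 8 lower and 18 higher with enzalutamide, and the part of the cell cycle in these changes was not tested. The 5 lower with enzalutamide became 3 without replicate C of DMSO or of enzalutamide.

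BARD1 had by far the largest response. It was at 73.3, 82.5 and 83.3 CPM in DMSO, 184, 181 and 176 CPM with abiraterone and 173, 176 and 167 CPM with enzalutamide, more than a doubling with no overlap (1.18 and 1.11, SE 0.04 each). NBN was at 89.6, 96.9 and 94.5 CPM in DMSO, 125, 120 and 123 CPM with abiraterone and 119, 121 and 120 CPM with enzalutamide (0.39 and 0.36). FANCL was at 8.01, 10.4 and 9.75 CPM in DMSO, 12.6, 11.7 and 12.5 CPM with abiraterone and 12.7, 11.3 and 12.2 CPM with enzalutamide (0.38 and 0.35). On the other side, RPA3 was at 30.2, 31.3 and 30.0 CPM in DMSO and 23.5, 22.0 and 22.9 CPM with abiraterone (-0.42, SE 0.05), and RAD51C at 47.6, 49.4 and 50.4 CPM in DMSO and 42.2, 42.2 and 44.2 CPM with enzalutamide (-0.20). RAD51B was at 7.17, 6.49 and 6.79 CPM in DMSO and 5.06, 5.27 and 5.7 CPM with abiraterone (-0.35), FANCB at 9.17, 11 and 11.8 CPM in DMSO, 8.16, 7.97 and 8.99 CPM with abiraterone and 8.77, 9.2 and 8.33 CPM with enzalutamide (-0.35 and -0.29). RAD50 was at 122, 119 and 116 CPM in DMSO and 103, 100 and 110 CPM with enzalutamide (-0.19). Except for FANCB with enzalutamide, whose libraries reached into the DMSO range, these falls lay below the controls. The FANCB call with enzalutamide was lost without replicate C of DMSO (adjusted p = 0.12 by edgeR) or of enzalutamide.

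Of BRCA1, BRCA2 and PALB2, BRCA2 was called lower with abiraterone and BRCA1 higher with enzalutamide. BRCA1 was at 76.8, 80.2 and 79.5 CPM with abiraterone (0.01, 95% interval -0.10 to 0.11) and at 82.3, 87.4 and 87.1 CPM with enzalutamide, where it was higher (0.13, adjusted p = 0.0352 by edgeR); without replicate A of DMSO the latter was 0.07 (adjusted p = 0.238 by edgeR), and without replicate B or C of enzalutamide the call was lost as well. BRCA2 was at 70.0, 77.6 and 73.4 CPM with abiraterone, overlapping DMSO (-0.29, SE 0.10, adjusted p = 0.0276). That call was lost without replicate C of DMSO (-0.19, adjusted p = 0.156 by edgeR), replicate B of DMSO or replicate A or C of abiraterone, with total-count scaling, without the filter on low counts and with only the groups compared. With enzalutamide BRCA2 was at 87.4, 91.1 and 94.8 CPM (0.01, 95% interval -0.20 to 0.23). PALB2 was called with neither drug. It was at 21.3, 22.3 and 21.5 CPM with abiraterone, below the controls (-0.07), and at 24.8, 23.5 and 23.6 CPM with enzalutamide, above them (0.07).

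In the drug pairs most of the genes that moved were lower, and BARD1 stayed high. With abiraterone plus olaparib 31 of the 41 genes were lower and 4 higher (31.1% and 31.1% of all genes), and with enzalutamide plus talazoparib 22 were lower and 4 higher (31.3% and 31.2%). The 4 higher genes of each pair were NBN, BARD1, SLX4 and FANCL. With abiraterone plus olaparib FANCL was at 12.8, 15.5 and 14 CPM (0.58) and NBN at 125, 121 and 126 CPM (0.40), above every control. With enzalutamide plus talazoparib BARD1 was at 183, 179 and 178 CPM (1.17), FANCL at 13.4, 12.9 and 14.5 CPM (0.52) and NBN at 119, 120 and 119 CPM (0.35). All of these libraries lay above the controls. TOP3A was at 52.9, 50.1 and 50.9 CPM in the former pair (-0.13, adjusted p = 0.0524 by edgeR with total-count scaling) and 53.9, 51.1 and 54.9 CPM in the latter (-0.08, adjusted p = 0.0867 by edgeR). With abiraterone plus olaparib RAD51B was at 4.3, 3.84 and 4.6 CPM (-0.69 against DMSO), RAD51AP1 at 21, 22.3 and 21.6 CPM (-0.67) and UBE2T at 39.5, 38.3 and 39.7 CPM against 59.2, 59.1 and 62.8 CPM in DMSO (-0.63), all below the controls. With enzalutamide plus talazoparib BRCA2 was at 58.4, 68.6 and 71 CPM (-0.46), BLM at 14, 13.1 and 14 CPM (-0.45) and RPA3 at 23.3, 21.7 and 22.1 CPM (-0.45). BRCA2 was at 60.4, 57.4 and 60.9 CPM with abiraterone plus olaparib (-0.60), below the controls. BRCA1 was at 64.4, 67.8 and 70.9 CPM with abiraterone plus olaparib (-0.21) and at 71.9, 77 and 77.9 CPM with enzalutamide plus talazoparib (-0.05, adjusted p = 0.353 by edgeR). PALB2 was at 20.8, 20.5 and 20.8 CPM and 21.1, 20.6 and 21.3 CPM, called lower in both (-0.14 and -0.12), calls that were lost with total-count scaling (adjusted p = 0.0913 and 0.138 by edgeR), the latter also without any 1 of its 6 libraries. Against the ARPi alone, adding olaparib to abiraterone lowered 26 and raised none (14.7% and 14.4% of all genes), and adding talazoparib to enzalutamide lowered 23 and raised none (17.9% and 16.5%). At an unadjusted p under 0.05, BARD1 and FANCL were higher in the former and FANCL in the latter, and DESeq2 called 0 in both. Leaving out replicate A or C of abiraterone plus olaparib gave 1 higher. S phase genes were lower than DMSO in 30 and 27 of 38.

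The interaction term compares the log2 fold change of a drug pair with what its members give when added. It was higher for 7 genes and lower for none with abiraterone and olaparib (4.74% and 8.08% of all genes; TOP3A was lower at an unadjusted p under 0.05 and DESeq2 called 0), and higher for 8 and lower for 1 with enzalutamide and talazoparib (5.32% and 7.28%). The 7 were MRE11, BARD1, GEN1, FANCI, BLM, FANCB and FANCM, and the 8 were MRE11, BARD1, GEN1, FANCI, BRCA1, XRCC2, FANCA and FANCD2. Both terms use the same DMSO libraries. The 7 became 12 without replicate A and 4 without replicate C of DMSO, and the 8 became 15 without replicate A of talazoparib. BARD1 was at 56.9, 58.8 and 60.0 CPM with olaparib, 184, 181 and 176 CPM with abiraterone and 200, 190 and 185 CPM with both, so that adding olaparib to abiraterone gave 0.09 (SE 0.04, adjusted p = 0.0746 by edgeR; interaction 0.53, SE 0.05, adjusted p = 2.54e-08 by edgeR). FANCD2 was at 38.1, 35.0 and 36.3 CPM with talazoparib, 61.8, 61.5 and 68.7 CPM with enzalutamide and 52.4, 58.4 and 60.0 CPM with both (interaction 0.45, SE 0.08), and BRCA1 had an interaction of 0.28 (SE 0.07). PALB2 was the gene with a lower interaction (-0.26, SE 0.07).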

How the data were processed

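RNA-seq of C4-2B cells was analysed from the deposited table. Per the labels and the study's methods, the authors trimmed reads, aligned them with STAR to GRCh38 and quantified them with Salmon on a GENCODE annotation, and the deposited values are estimated counts per gene, given as whole numbers; how they were rounded is not given in the sources used here. Quantification shares reads among similar genes, so close paralogs are less certain. Gene symbols came from GENCODE v44, and 521 of the 63187 identifiers, with 0.12% of counts, had none. Replicates differed beyond counting noise (chi-square per degree of freedom 2.183 to 6.028), so none was counted as a duplicate.

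Panel and time course were fitted separately with edgeR 4.0.16 in R 4.3.3 (TMM factors, filterByExpr, robust quasi-likelihood fit, Benjamini-Hochberg adjustment over 18625 and 18502 genes, threshold 0.05). Alternatives were RLE or total-count scaling, no filter, a mean of at least 1 CPM, DESeq2 1.42.0, only the groups compared, a replicate block and leaving out each library. The scripts were tested on simulated data; the rule for passing that test was changed after its first run, which missed too many interaction effects in genes of very low counts, and now judges genes at or above 2 CPM. Values in every library are given for BRCA1, BRCA2 and PALB2, for genes lower only at day 5 of 5 µM that passed both difference tests, and for the 3 largest rises and 3 largest falls called against DMSO; other genes are named by role. The genes and lists were chosen with earlier results of these data known. Values of 1 further marker gene are not reported here.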

Additional observations from a re-analysis of the deposited data

Results flagged for a closer look

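Drug effects that differed between conditions by a test of the difference itself were set apart for a closer look. With abiraterone and olaparib the interaction was higher for 7 of the 41 genes (4.74% of all genes). With enzalutamide and talazoparib it was higher for 8 (5.32% of all genes) and lower for 1, PALB2 (7.28%). The effect of 5 µM olaparib was lower at day 5 than at day 1 for 35 (27.7% of all genes) and higher for 2, NBN and SLX4 (27.2%). That of 1 µM was lower for 31 (14.2%) and higher for 1, NBN (15.6%).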

How the results depend on the processing

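Counts of the 41 genes lower at day 5 of 5 µM (37 to 39 over all settings and left-out libraries), at day 5 of 1 µM (33 to 35), with panel olaparib (26 to 32) and with talazoparib (27 to 33) stayed within 1.5 times. Small counts moved, and the cause was not tested. With RLE scaling, with a mean of at least 1 CPM and with the replicate block 2 genes were higher at day 5 of 5 µM. With total-count scaling 9 were higher with abiraterone, 3 lower with enzalutamide, 0 higher with panel olaparib, 3 lower and 5 higher at 1 µM on day 1, 6 lower at 5 µM on day 1, 0 higher in the day difference of either dose, and 1 gene, FANCL, was lower only at day 5 of 5 µM in both tests of the difference. That scaling moved the median of all genes in the 5 µM day difference from -0.02 to -0.15. Panel olaparib gave 0 higher without the filter, at 1 CPM, by DESeq2 and with only the groups compared. At 1 µM on day 1, 4 were higher without the filter, at 1 CPM and with only the groups compared (3 lower), and 1 by DESeq2, which also gave 1 higher in the 5 µM and 0 in the 1 µM day difference. Adding olaparib to abiraterone raised 2 genes at 1 CPM and 1 with only the groups compared, and the abiraterone and olaparib interaction was higher for 12 at 1 CPM.

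Leaving out 1 library at a time gave 3 to 6 lower with enzalutamide, 0 to 1 higher with panel olaparib, 0 to 1 higher on adding olaparib to abiraterone, 4 (without DMSO C) to 12 (without DMSO A) in the abiraterone and olaparib interaction, 7 to 15 (without talazoparib A) in the other, 1 to 5 lower and 1 to 3 higher at 1 µM on day 1, 1 to 2 higher at day 5 of 5 µM, 1 to 3 and 0 to 1 higher in the day differences of 5 and 1 µM, and 1 to 3 genes lower only at day 5 of 5 µM in both tests. BRCA1 with abiraterone ranged from -0.052 (without DMSO A) to 0.047, with -0.0075 without abiraterone B, and BRCA2 with enzalutamide from -0.090 (without DMSO A) to 0.12, with -0.017 without enzalutamide C. No pairing by replicate number was detected (correlations of deviations -0.069 to 0.064 in the panel and -0.133 to 0.116 in the time course). These correlations cannot exclude that samples of the same number were handled together. The replicate block changed no other count by over 1.5 times. The lowest counts were those of BLM at day 5 of 5 µM (94 to 120), and the effect of depth was not tested.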
